A study of Mus musculus with 24 samples.

Results

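The comparison is of mouse liver at zeitgeber time 15 (ZT15) with liver at ZT21, a step of 6 h. Zeitgeber time counts hours from lights on, so that under the usual cycle both times lie in the dark phase, when mice are active and feed. The 3 ZT21 samples were compared with the 3 ZT15 samples, which are 6 of the 24 samples of the series, and the 3 samples of ZT18 served as the midpoint. The series measured liver at 8 times of day, and its title names a circadian analysis, so the step asks which transcripts differ between these hours of the night.

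The ZT15, ZT18 and ZT21 groups share everything the labels give apart from the hour. All were liver total RNA of male C56bl/6J mice, the strain name as the labels spell it, 13 weeks old and fed chow ad libitum. No genotype change or drug is named. From 300 ng of RNA, biotinylated single-stranded DNA was made and hybridised to an Affymetrix whole-transcript array, on which several short probe groups, called probe sets, lie along each gene. The samples of a group carry the numbers 1 to 3. Whether each came from its own animal is not stated, so the p-values speak of the spread between samples, some of which may be technical. Whole liver was measured, so fewer cells of a type and less RNA per cell cannot be told apart.

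The liver clock is a loop of transcription. The activators BMAL1 (gene Arntl) and CLOCK or its relative NPAS2 bind E-box sequences and turn on the Per and Cry genes, whose proteins then inhibit the activators. A second loop runs through the REV-ERB repressors (Nr1d1, Nr1d2) and ROR activators, which act on Arntl, Npas2 and Nfil3, and the PAR bZIP factors DBP, TEF and HLF carry the rhythm through D-box sequences to enzymes of metabolism.

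All values below are log2 expression as deposited, a gene's value being the mean of its probe sets, and a difference is the ZT21 mean minus the ZT15 mean with its standard error (SE). The step was tested with limma over all 23152 genes and all 24 arrays, with Benjamini-Hochberg adjustment and a threshold of 0.05. Only 1 gene passed, or 0.00432% of those tested. At an unadjusted p under 0.05, limma gave 1542 genes (6.66%), 812 higher (3.51%) and 730 lower (3.15%) at ZT21. In 2727 genes (11.8%) the 3 arrays of one time all lay above the 3 of the other, 1447 higher (6.25%) and 1280 lower (5.53%) at ZT21. Such genes are called apart below. A difference of at least 1 log2 unit with the groups apart was seen in 66 genes higher (0.285%) and 91 genes lower (0.393%) at ZT21. Since 1 gene alone passed the adjusted test, every other gene below is given by its values and is not counted as changed. Olfactory receptor genes served as a measure of background, and their 95th percentile, 6.17, is called the olfactory percentile. Of the 10305 genes with a mean above it, 964 were apart and higher (9.35%) and 450 apart and lower (4.37%), 1414 in all (13.7%). Counts of apart members in the lists of brighter genes below are to be read against these shares. The same fit gave 24 calls for ZT0 to ZT6 (0.104%), 33 for ZT3 to ZT9 (0.143%), 0 for ZT6 to ZT12 (0.0%, with 2111 at an unadjusted p under 0.05), 10 for ZT9 to ZT15 (0.0432%), 17 for ZT12 to ZT18 (0.0734%), 31 for ZT18 to ZT0 (0.134%) and 7 for ZT21 to ZT3 (0.0302%). Neighbouring steps share arrays.

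The 6 arrays were alike over all genes, with a mean correlation of 0.9827 to 0.9843 with the other arrays of the series. Their clock genes did not all read at the labelled hour. A clock time was read for each array from its 18 measured clock genes, by laying their values against 24-h curves fitted to the arrays of the other replicate numbers. The arrays numbered 1 read 12.2 h at ZT15, 15.5 h at ZT18 and 17.5 h at ZT21, which is 2.8, 2.5 and 3.5 h before their labels. The arrays numbered 2 and 3 read 16 and 15.9 h at ZT15, 19.6 and 18.4 h at ZT18, and 21.8 and 21.6 h at ZT21, all after their labels by 0.4 to 1.6 h. The curves used for them were fitted in part to the arrays numbered 1. The offsets are thus relative between the numbers, and do not show that numbers 2 and 3 ran late. Within each number, the read time of ZT21 lay after that of ZT15. For the clock genes whose values or p-values move most, results are given also on the 16 arrays numbered 2 and 3 of the 8 times. Some genes outside the clock lists are given in this way too, with p-values that moved either way. The arrays numbered 1 stood out in the clock genes themselves, so leaving them out can narrow the spread of those genes. Smaller p-values of clock genes on the 16 arrays are therefore no separate support. Why the arrays numbered 1 read early was not tested.

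**Figure D1:**
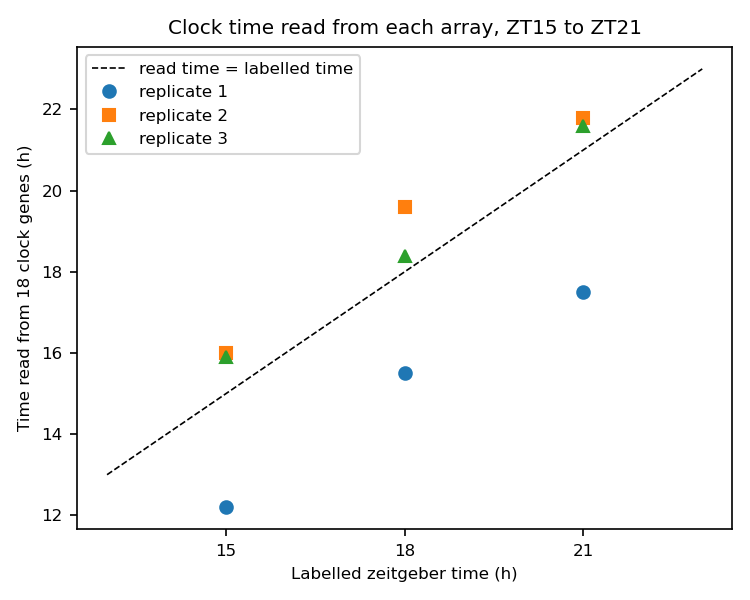
Clock time in hours read from 18 clock genes on each of the 9 arrays (vertical axis) against the labelled zeitgeber time in hours (horizontal axis). Symbols are the replicate numbers and the dashed line marks equal times. The 3 arrays numbered 1 lie below the line, at 12.2, 15.5 and 17.5 h, and the other 6 lie above it.

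Npas2, the activator that can take the place of CLOCK, was the gene that rose. Npas2 (chromosome 1, 39193702 to 39363240, mm10) read 4.55, 4.86 and 5.40 at ZT15, 6.58, 8.77 and 8.61 at ZT18, and 8.51, 9.18 and 8.78 at ZT21. Npas2 lay under the olfactory percentile on each ZT15 array and above it on each ZT21 array. The mean rose from 4.94 ± 0.43 to 8.82 ± 0.33 (SD, n = 3 each). That difference of 3.89 ± 0.54 is 14.8-fold, with an adjusted p of 0.0116, a ratio taken against a signal at background level. ZT21 held the highest mean of Npas2 over the 8 times and ZT12 the lowest. Of its 19 probe sets, 18 were higher at ZT21 and 16 were apart, with a median difference of 4.23 and a range of -0.54 to 7.98. On the 16 arrays numbered 2 and 3, the difference was 3.85 with an adjusted p of 5.67e-06. The call is lost without the first (adjusted p = 0.174) or second (0.117) ZT15 array, without the second ZT21 array (0.165), and with the brightest probe set alone, where the difference was 1.72 (0.658). Each left-out array gave the same direction.

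**Figure D2:**
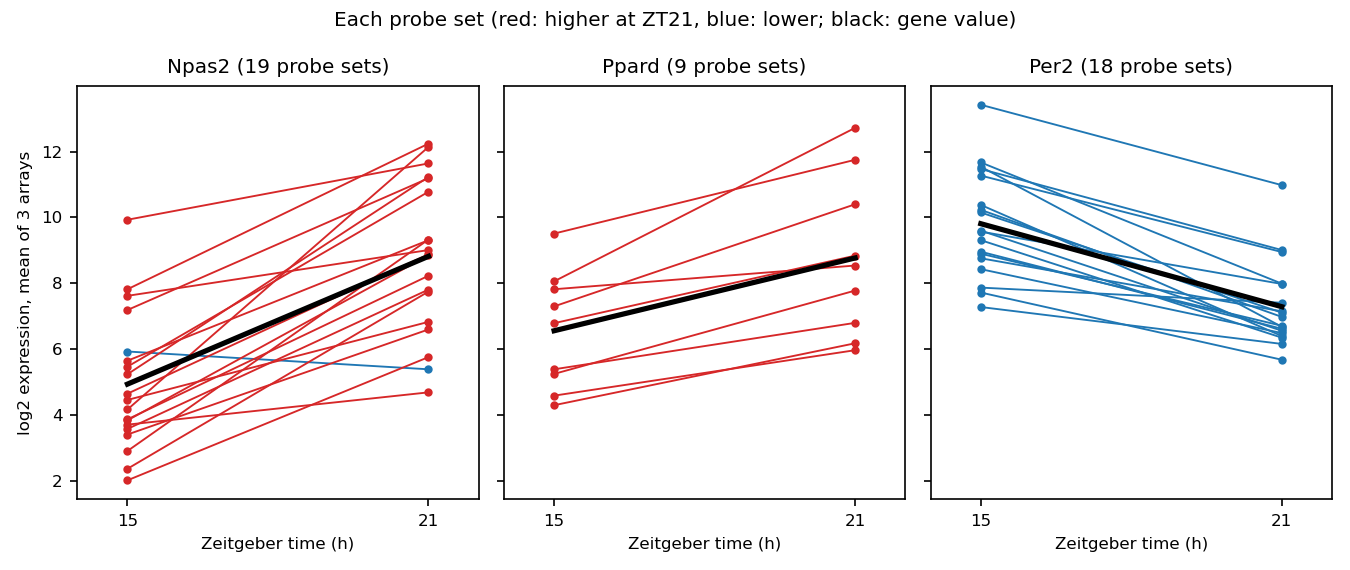
Mean log2 expression at ZT15 and at ZT21 (zeitgeber time in hours, 3 arrays each) of every probe set of Npas2 (19), Ppard (9) and Per2 (18), with the gene value in black. Of the Npas2 probe sets 18 run upward, all 9 of Ppard run upward, and all 18 of Per2 run downward.

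Most of the change in Npas2 means came in the first 3 h, 3.05 from ZT15 to ZT18 against 0.84 from ZT18 to ZT21. The ZT18 array numbered 1 stood between the groups, at 6.58. The last 3 h minus the first 3 h was -2.21 ± 0.93 for Npas2, which did not pass over all arrays (adjusted p = 0.999) and did on the 16 arrays numbered 2 and 3, at -3.27 ± 0.37 (adjusted p = 0.0209). Over all genes, limma called 0 genes for unequal parts of the step, with 1020 at an unadjusted p under 0.05 (4.41%).

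Arntl and Clock were also higher at ZT21, without passing the test, and Arntl2 was not. Of the 4 measured activators, 1 rose (Npas2), 3 were higher and apart, and 3 had an unadjusted p under 0.05, with a median difference of 1.31 against 0.00 over all genes. Arntl (chromosome 7, 113178471 to 113314126) read 9.76, 10.41 and 11.18 at ZT15 and 12.08, 12.35 and 12.16 at ZT21. The groups did not overlap, and the ZT21 arrays lay closer together (SD 0.14, n = 3) than the ZT15 arrays (SD 0.71). The difference for Arntl was 1.74 ± 0.74 (adjusted p = 0.684), and 20 of its 21 probe sets were higher at ZT21. The exception was its brightest probe set, with -0.04. Clock read 13.48, 13.63 and 13.95 at ZT15 and 14.86, 14.47 and 14.38 at ZT21, with all 19 probe sets higher and a difference of 0.88 ± 0.40 (adjusted p = 0.714). Arntl2, the second BMAL gene, lay at or below the olfactory percentile in all but 1 of the 6 arrays and differed by -0.19 ± 0.21.

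The repressors were lower at ZT21 as a group, in values that stayed short of the threshold. Of 10 measured repressors, limma called 0, with 5 at an unadjusted p under 0.05. At ZT21, 9 were lower and 5 were apart, with a median of -1.18. Per2 (chromosome 1, 91415977 to 91459351) read 10.65, 9.47 and 9.30 at ZT15, 8.87, 7.90 and 8.71 at ZT18, and 8.25, 6.77 and 6.84 at ZT21. Array 1 was the highest at each of these times for Per2, and no ZT21 array reached the lowest ZT15 array. The difference of -2.52 ± 0.43, a 5.73-fold higher level at ZT15, had an adjusted p of 0.0748. It came in nearly equal parts, -1.31 in the first 3 h and -1.21 in the last. All 18 probe sets of Per2 were lower, 15 of them apart. On the 16 arrays numbered 2 and 3, Per2 passed (-2.58, adjusted p = 0.00441).

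By the mean of probe sets, Per3 had the largest difference among the repressors, but by the brightest probe set alone it was -0.41 (adjusted p = 0.968) where Per2 was -2.44. Per3 (chromosome 4, 150997018 to 151044707) read 9.28, 8.71 and 8.46 at ZT15 and 6.45, 5.87 and 5.37 at ZT21, and the groups did not overlap. The difference was -2.92 ± 0.74 (adjusted p = 0.418), with 23 of 24 probe sets lower and 20 apart.  On the 16 arrays numbered 2 and 3, it was -2.97 with an adjusted p of 0.00441. Per1 read 9.73, 7.34 and 8.36 at ZT15 and 7.57, 6.34 and 6.58 at ZT21, and array 1 of ZT21 lay above array 2 of ZT15. Its difference was -1.65 ± 0.60 (adjusted p = 0.630).

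The cryptochromes differed from each other. Cry2 read 9.11, 8.63 and 9.60 at ZT15 and 8.33, 7.71 and 7.76 at ZT21, with all 13 probe sets lower and a difference of -1.18 ± 0.35 (adjusted p = 0.594). Cry1, which peaks late in the night in liver, read 10.10, 9.65 and 10.58 at ZT15, 10.74, 11.07 and 11.30 at ZT18, and 11.11, 9.35 and 9.69 at ZT21. All 3 ZT18 arrays of Cry1 lay above the ZT15 arrays, and at ZT21 array 1 was still at that height while arrays 2 and 3 were lower. The whole step of Cry1 was therefore -0.06 ± 0.51, from 0.93 in the first 3 h and -0.99 in the last. On the 16 arrays numbered 2 and 3, it was -0.59 (adjusted p = 0.807).

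The REV-ERB genes, whose highest means over the 8 times were at ZT3 (Nr1d1) and ZT9 (Nr1d2), gave unlike values. Nr1d2 read 11.66, 11.16 and 10.49 at ZT15, 9.35, 8.87 and 8.20 at ZT18, and 8.75, 8.81 and 9.51 at ZT21. All of its difference lay in the first 3 h, -2.30, with 0.22 in the last, and the step was -2.08 ± 0.55 (adjusted p = 0.451). Nr1d1 read 8.36, 6.60 and 7.05 at ZT15 and 6.74, 6.91 and 9.45 at ZT21, with overlapping groups and array 3 of ZT21 standing alone. Its step of 0.36 ± 0.82 turned to -0.51 without that array and was 1.35 on the 16 arrays numbered 2 and 3 (adjusted p = 0.701). Ciart, a repressor that binds BMAL1, read 7.67, 5.80 and 5.91 at ZT15 and 5.33, 5.42 and 5.51 at ZT21. All but the first array of Ciart lay under the olfactory percentile, and its difference of -1.04 ± 0.59 was -0.39 on the 16 arrays without the first of each time. Bhlhe40 (-1.17 ± 0.78) and Bhlhe41 (-0.46 ± 0.41) overlapped between times, and so did the ROR genes Rora (-0.03 ± 0.16) and Rorb (-0.18 ± 0.19).

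**Figure D3:**
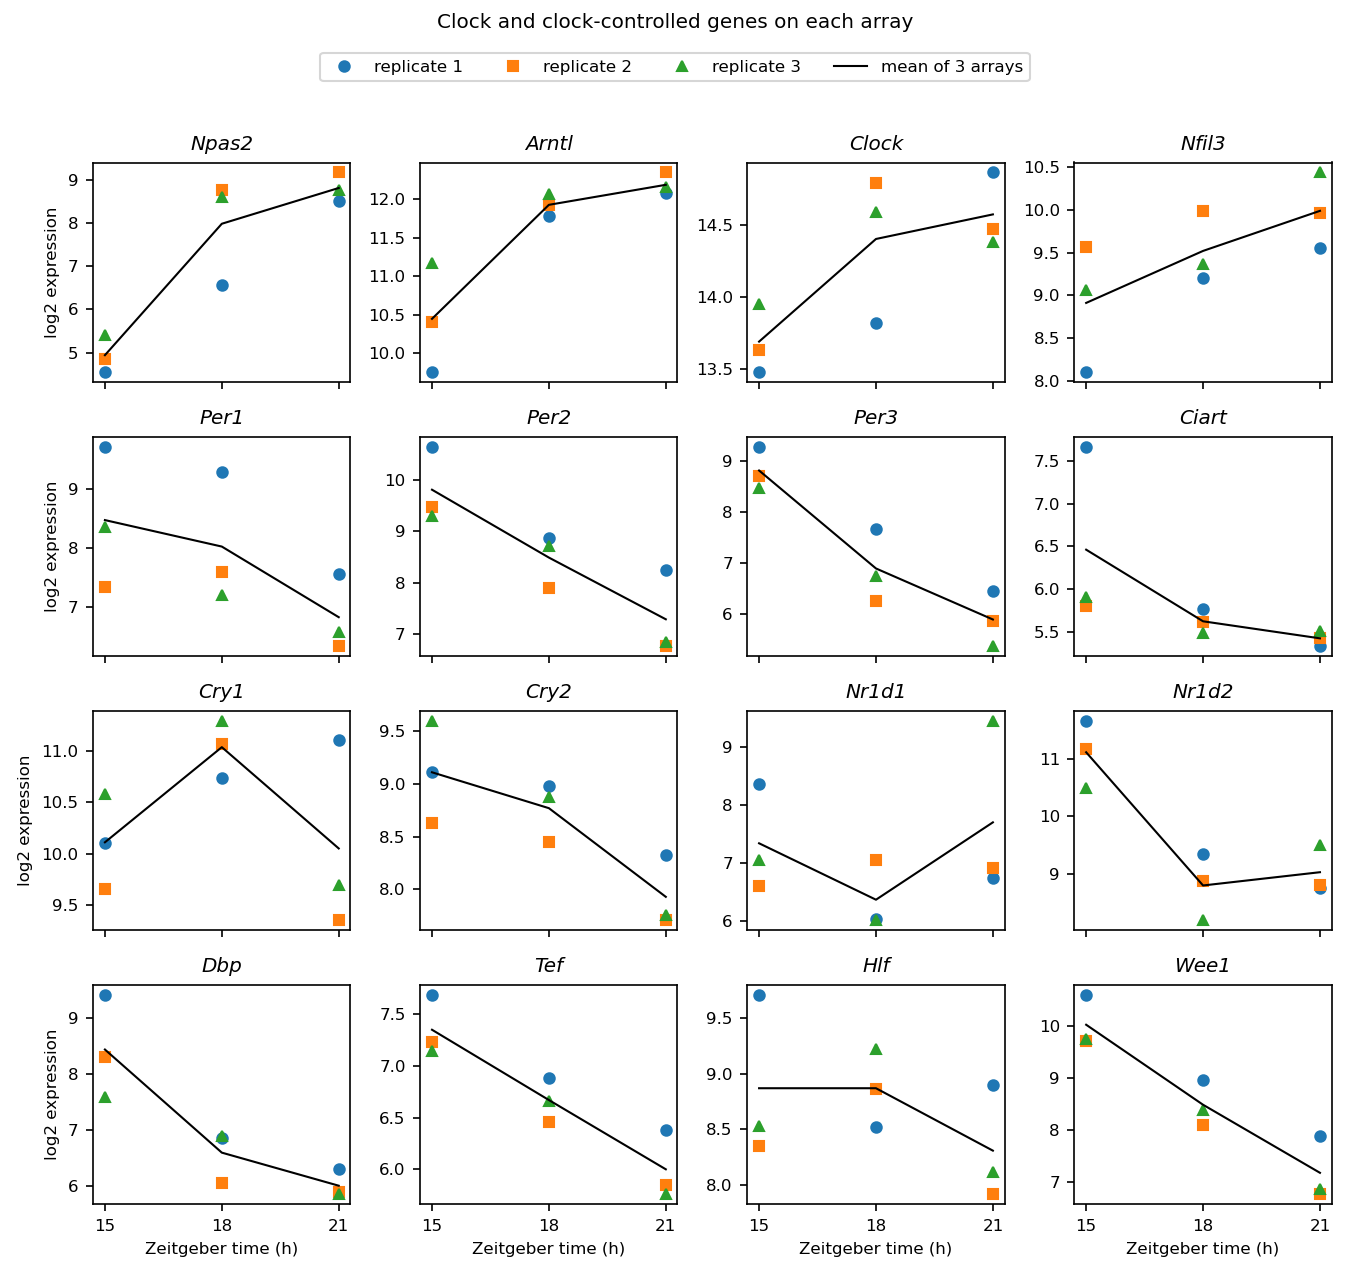
Log2 expression of 16 clock and clock-controlled genes on each array (symbols, by replicate number) at ZT15, ZT18 and ZT21 (zeitgeber time in hours), with the line through the means of 3 arrays. Vertical scales differ between panels. Npas2, Arntl, Clock and Nfil3 have their highest means at ZT21, and Per2, Per3, Dbp, Tef and Wee1 their lowest of the 3 times.

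The PAR bZIP genes were lower at ZT21 and Nfil3, which encodes a repressor of the same D-box sites, was higher. Limma called 0 of these 4 genes, with 3 at an unadjusted p under 0.05. Dbp read 9.41, 8.29 and 7.58 at ZT15 and 6.29, 5.88 and 5.85 at ZT21, a difference of -2.42 ± 1.12 (adjusted p = 0.723) with the groups apart and all 7 probe sets lower. Tef was apart as well, at 7.69, 7.23 and 7.14 against 6.38, 5.85 and 5.76, with a difference of -1.36 ± 0.35 (adjusted p = 0.418). Without the arrays numbered 1, the adjusted p was 0.0655 for Dbp (-2.07) and 0.0735 for Tef (-1.38). Hlf overlapped, with -0.56 ± 0.32. Nfil3 read 8.10, 9.57 and 9.06 at ZT15 and 9.55, 9.97 and 10.44 at ZT21, and all 5 probe sets were higher. Array 2 of ZT15 lay just above array 1 of ZT21 for Nfil3, and the difference was 1.08 ± 0.40 (adjusted p = 0.630).

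Promoter windows were read for these genes because repressors and PAR bZIP genes were low together at ZT21. In the 250 bases before each RefSeq start (GRCm38.p6), the E-box CACGTG was found in 4 of 9 windows of repressors (44.4%), those of Bhlhe41, Ciart, Cry1 and 1 of the 2 of Per1. The windows of Per2 and Bhlhe40 were not analysed here. It was found in 2 of 5 windows of the PAR bZIP genes and Nfil3, both of them of Tef, and in 0 of 7 windows of the 4 activators, against 6.02% of all 32851 windows. The D-box TTATGTAA stood in 1 of the 9 repressor windows, that of Per3, which holds 2 of them, and in 0.819% of all windows. Both strands were searched. The window of Npas2 held neither motif, nor the ROR element, nor its shorter form TAGGTCA, which lies within the longer one. That shorter form stood in the Nfil3 window, 1 of the 5 with the PAR bZIP genes, and in 2.23% of all windows. It was found in 0 of the 7 activator windows and 0 of the 9 repressor windows. These matches describe the letters only. The stretches below are the parts of 4 windows outside protein-coding genes, 5′ to 3′ on the gene's strand, with E-boxes (Ciart, Cry1, Tef) or the D-box within the stretch (Per3, 1 of its 2) in capitals. They are Ciart at chr3:95882258-95882478 (minus strand), Cry1 at chr10:85185055-85185304 (minus), Tef at chr15:81802423-81802672 (plus) and Per3 at chr4:151044708-151044852 (minus).
Ciart: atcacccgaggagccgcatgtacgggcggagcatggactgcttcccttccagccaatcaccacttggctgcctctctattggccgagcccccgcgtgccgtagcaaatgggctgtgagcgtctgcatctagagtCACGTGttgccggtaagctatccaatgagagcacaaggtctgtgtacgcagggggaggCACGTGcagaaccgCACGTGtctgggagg
Cry1: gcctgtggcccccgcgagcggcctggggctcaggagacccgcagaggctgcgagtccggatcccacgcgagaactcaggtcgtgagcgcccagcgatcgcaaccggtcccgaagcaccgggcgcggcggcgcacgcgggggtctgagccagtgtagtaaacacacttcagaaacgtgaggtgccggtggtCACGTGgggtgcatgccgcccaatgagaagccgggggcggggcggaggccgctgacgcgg
Tef: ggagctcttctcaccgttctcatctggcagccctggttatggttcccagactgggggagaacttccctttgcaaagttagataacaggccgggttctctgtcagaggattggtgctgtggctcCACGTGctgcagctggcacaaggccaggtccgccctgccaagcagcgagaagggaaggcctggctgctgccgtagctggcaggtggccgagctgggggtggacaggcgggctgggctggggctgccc
Per3: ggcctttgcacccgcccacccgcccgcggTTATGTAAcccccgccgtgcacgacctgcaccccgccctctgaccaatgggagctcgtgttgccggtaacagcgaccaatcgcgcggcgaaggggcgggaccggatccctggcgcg
Ciart thus holds 3 E-boxes in 221 bases, and Cry1, whose level peaked at ZT18, holds 1 like Tef, whose level was lowest at ZT21.

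Among other genes known to follow the liver clock, 12 of 17 were lower at ZT21, 9 of them apart, and 3 were higher and apart. The median was -1.12, limma called 0, and 8 had an unadjusted p under 0.05. Wee1, a kinase that holds back entry into mitosis, read 10.61, 9.72 and 9.75 at ZT15 and 7.89, 6.77 and 6.86 at ZT21. The groups did not overlap, and all 11 probe sets of Wee1 were lower. Its difference was -2.85 ± 0.62, or 7.22-fold higher at ZT15 (adjusted p = 0.278, and 0.0903 on the 16 arrays numbered 2 and 3). Nampt, which makes the precursor of NAD+, read 13.54, 13.39 and 12.43 at ZT15 and 11.17, 11.10 and 11.15 at ZT21. The ZT21 arrays of Nampt had an SD of 0.03 (n = 3), and 11 of 12 probe sets were lower. Its difference was -1.98 ± 0.40 (adjusted p = 0.247). Tspan4, a tetraspanin, read 9.73, 9.51 and 9.32 at ZT15 and 7.98, 7.93 and 7.59 at ZT21 (-1.68 ± 0.32, adjusted p = 0.177, and 0.0521 on the 16 arrays), with all 12 probe sets lower.

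Usp2 and Avpr1a were chosen after their values were seen. Usp2, which removes ubiquitin from proteins, read 11.21, 9.92 and 10.25 at ZT15 and 9.89, 6.54 and 7.01 at ZT21, so that array 1 of ZT21 stood close to the ZT15 arrays. The difference for Usp2 was -2.64 ± 0.79 (adjusted p = 0.594). Avpr1a, a vasopressin receptor, went the other way, at 9.76, 10.71 and 10.61 against 12.08, 12.10 and 12.08 (1.73 ± 0.41, adjusted p = 0.356). Por, which passes electrons to cytochromes P450, was named by the rule and read 12.98, 12.22 and 12.26 against 11.26, 10.95 and 10.27, with 19 of 20 probe sets lower (-1.66 ± 0.49, adjusted p = 0.559).

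Ppard, which encodes the nuclear receptor PPAR delta, came next after Npas2 in the test, level with Per2 in its adjusted p. Ppard (chromosome 17, 28232754 to 28301469) read 6.45, 6.51 and 6.71 at ZT15, 8.19, 8.79 and 9.04 at ZT18, and 8.76, 9.55 and 8.02 at ZT21. Every ZT18 and ZT21 array of Ppard lay above the highest ZT15 array. The difference was 2.22 ± 0.37, or 4.65-fold (adjusted p = 0.0748, and 0.331 on the 16 arrays numbered 2 and 3). All 9 probe sets were higher, 6 of them apart. Nearly all of the rise in means lay in the first 3 h, 2.12 against 0.10 in the last. The difference of these parts did not pass (-2.02 ± 0.64, adjusted p = 0.999). Of 21 measured nuclear receptors outside the clock, limma called 0 and 3 had an unadjusted p under 0.05. Ppard and 2 others were higher and apart, and Pparg, the fat cell receptor (-1.04 ± 0.45), and Esrra (-0.28) were lower and apart. The median of the list was -0.06.

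Genes that make fatty acids and triglycerides were mostly lower at ZT21. Of 23 measured, 18 were lower and 4 apart, with a median of -0.52. Limma called 0 and 6 had an unadjusted p under 0.05. Lpin2, a phosphatidate phosphatase on the path to triglyceride, read 14.06, 13.86 and 14.24 at ZT15 and 12.37, 12.35 and 12.57 at ZT21. Both groups were tight, 19 of 21 probe sets were lower, and the difference was -1.62 ± 0.42 (adjusted p = 0.418). Elovl6, which lengthens palmitate, and Fasn, the fatty acid synthase, were chosen after their values were seen. Elovl6 read 16.01, 14.11 and 15.85 at ZT15 and 12.92, 14.05 and 14.05 at ZT21, with array 2 of ZT15 near the ZT21 level (-1.65 ± 0.61). Fasn overlapped, at 18.43, 16.83 and 18.12 against 15.41, 17.21 and 16.81 (-1.32 ± 0.55). In both genes array 2 was the lowest at ZT15 and array 1 the lowest at ZT21.

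Sterol genes had no common direction. Of 18 cholesterol synthesis genes, 13 were lower and 5 higher, none of them apart. Their median was -0.15, and limma called 0, with 0 at an unadjusted p under 0.05. Hmgcs1, the synthase before HMG-CoA reductase, read 15.55, 16.06 and 16.60 at ZT15 and 15.65, 17.79 and 16.97 at ZT21, with array 1 of ZT21 inside the ZT15 range (0.73 ± 0.50). The list of sterol uptake and SREBP control held 8 measured genes, 3 higher and 5 lower, with 2 apart in each direction. Its median was -0.11, limma called 0, and 2 had an unadjusted p under 0.05. Scap, which escorts the SREBP factors out of the endoplasmic reticulum, read 11.33, 11.12 and 12.05 at ZT15 and 12.12, 13.10 and 12.19 at ZT21, just apart, with 24 of 25 probe sets higher (0.97 ± 0.30, adjusted p = 0.594). Insig2, which retains SCAP, was chosen after its values were seen, at 12.02, 11.48 and 13.02 against 13.85, 13.15 and 13.77 (1.42 ± 0.44, adjusted p = 0.594).

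Of 14 bile acid synthesis genes, 10 were higher at ZT21 and 4 lower, with a median of 0.15. Cyp7a1, the enzyme that limits the rate at which bile acids are made, chosen after its values were seen, read 15.35, 15.66 and 15.94 at ZT15 and 15.03, 14.86 and 14.50 at ZT21 (-0.86 ± 0.52, adjusted p = 0.824). Hsd3b7, an enzyme of the following steps, had ZT15 arrays from 11.57 to 12.33 (mean 11.97 ± 0.38, SD, n = 3) and read 13.37, 13.57 and 13.79 at ZT21. The groups of Hsd3b7 did not overlap and all 14 probe sets were higher (1.61 ± 0.38, or 3.05-fold, adjusted p = 0.364). Abcb11, the pump that exports bile salts, read 16.12, 16.84 and 16.81 against 17.25, 17.73 and 17.49, with all 23 probe sets higher (0.90 ± 0.26, adjusted p = 0.543). With the brightest probe set alone, Abcb11 differed by 0.18. Limma called 0 of the 14 synthesis genes and 0 of 15 genes of transport and feedback. At an unadjusted p under 0.05 there were 2 in each list.

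Among carbohydrate genes, those of glycolysis were mostly lower. Of 14 genes of glucose entry and glycolysis, 12 were lower at ZT21 and 4 apart, with a median of -0.48, limma called 0 and 3 had an unadjusted p under 0.05. Pfkfb1, the enzyme that sets the level of an activator of glycolysis, read 12.20, 11.66 and 12.63 at ZT15 and 11.18, 10.89 and 10.95 at ZT21, apart, with 20 of 21 probe sets lower (-1.16 ± 0.38, adjusted p = 0.594). Gys2, the liver glycogen synthase, read 16.53, 15.99 and 16.49 at ZT15 and 15.49, 14.65 and 15.06 at ZT21, with 18 of 19 probe sets lower (-1.27 ± 0.31, adjusted p = 0.367). The other 14 genes of glycogen metabolism included Gbe1, the branching enzyme, which was also lower and apart (-0.67 ± 0.19). Ppp1r3c, which brings a phosphatase to glycogen, overlapped, at 10.99, 9.24 and 12.73 against 13.81, 12.40 and 13.84. Of the 15, 7 were higher and 8 lower, with a median of -0.11, limma called 0, and 3 had an unadjusted p under 0.05. Of 16 gluconeogenesis genes and FOXO1 targets, 6 were higher and 10 lower, with a median of -0.10, and limma called 0, with 2 at an unadjusted p under 0.05.

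Among amino acid breakdown genes, 17 of 22 were higher at ZT21, 4 of them apart, with a median of 0.21. Limma called 0 and 5 had an unadjusted p under 0.05. All 22 lay above the olfactory percentile, where 9.35% of genes were apart and higher and 4.37% apart and lower. Cbs, which channels homocysteine toward cysteine (chromosome 17, 31612623 to 31637233), read 13.12, 13.25 and 13.12 at ZT15 and 14.03, 15.04 and 14.53 at ZT21. The ZT15 arrays agreed closely, and 20 of 23 probe sets were higher and apart. Its difference was 1.37 ± 0.28, or 2.58-fold (adjusted p = 0.255, and 0.0652 on the 16 arrays numbered 2 and 3), and 0.49 with the brightest probe set alone. Hal and Amdhd1, enzymes of histidine breakdown chosen after their values were seen, were both higher and apart, Hal by 1.15 ± 0.32 (adjusted p = 0.525) and Amdhd1 by 1.60 ± 0.34 (0.255). Slc25a15, the ornithine carrier of the urea cycle, was 0.51 ± 0.19 higher, with 8 of 8 probe sets in that direction.

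Heat shock genes and cytosolic chaperones were lower at ZT21 in 21 of 22 members. Limma called 0, while 7 had an unadjusted p under 0.05 and 7 were apart. The median was -0.45, and 11508 of all 23152 genes were lower. Hspa8, the constitutive chaperone of its family, read 16.75, 16.57 and 16.46 at ZT15 and 16.03, 15.87 and 15.96 at ZT21 (-0.63 ± 0.16, adjusted p = 0.418). The top of the array scale, 19.93, was reached by 7 of its 17 probe sets, so that the difference of Hspa8 is understated. The largest differences in the list, chosen after their values were seen, were those of the inducible Hspa1b (-1.69 ± 0.70) and of Hsph1 (-1.44 ± 0.52), which read 12.39, 12.35 and 11.40 against 10.52, 10.24 and 11.06. Both were apart. Over the 8 times, the highest mean fell at ZT15 for Hspa8 and Hspa1b and at ZT12 for Hsph1.

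PPAR alpha targets and other genes of the fasting response were lower at ZT21 in 17 of 21 members, 5 of them apart, with a median of -0.34. Limma called 0, and 0 had an unadjusted p under 0.05. Cyp4a14 and Cyp4a10, fatty acid hydroxylases chosen after their values were seen, had the widest spread. Cyp4a14 read 11.63, 12.23 and 10.86 at ZT15, 16.13, 14.08 and 7.16 at ZT18, and 6.48, 6.56 and 9.81 at ZT21. The difference of -3.96 was the most negative among genes that were apart, but the ZT18 arrays alone ran from 7.16 to 16.13 and its SE was 2.36 (adjusted p = 0.819). Cyp4a10 and Cyp4a14 are close relatives, and probes may read both.

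Other metabolic genes named by the rule follow. Tymp, thymidine phosphorylase, read 7.53, 7.49 and 9.75 at ZT15 and 10.41, 10.56 and 10.16 at ZT21, with array 3 of ZT15 near the ZT21 level (2.12 ± 0.59, adjusted p = 0.517). Among the 10 genes of pyrimidine salvage and breakdown, 1 was higher and apart and 3 were lower and apart, with a median of 0.08. Chka, choline kinase, read 11.24, 12.27 and 12.15 against 12.81, 14.77 and 13.38, with all 18 probe sets higher (1.77 ± 0.76, adjusted p = 0.689). Among the 10 genes of choline and ethanolamine phospholipid synthesis, 4 were higher and 6 lower, with a median of -0.05. Srm, spermidine synthase, was lower, at 10.41, 9.51 and 10.06 against 8.99, 8.83 and 9.03 (-1.04 ± 0.26, adjusted p = 0.418). In the same list of polyamine genes, Odc1, ornithine decarboxylase, and Azin1, which protects it, were lower and apart as well (-0.62 ± 0.28 and -0.67 ± 0.26). Odc1 and Azin1 lie outside the rule and were chosen after their values were seen. Of the 8 polyamine genes, 5 were lower and 3 higher.

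Cyp2a4, a cytochrome P450 that hydroxylates steroids, had a larger difference than any clock repressor. It read 14.27, 15.37 and 13.28 at ZT15, 12.91, 12.82 and 10.99 at ZT18, and 11.84, 10.49 and 10.65 at ZT21. The groups were apart in all 7 probe sets. The difference was -3.31 ± 0.73, or 9.91-fold higher at ZT15 (adjusted p = 0.278, and 0.331 on the 16 arrays numbered 2 and 3). Cyp2a5, a near-identical gene, was lower too (-1.64 ± 0.53), and probes may read both. Of 20 xenobiotic receptors and targets, 15 were lower, limma called 0 and 3 had an unadjusted p under 0.05.

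Immediate-early genes were lower in 13 of 16 members, with a median of -0.46, and cell cycle and growth arrest genes in 14 of 21, with -0.32. Limma called 0 in both, with 1 and 4 members at an unadjusted p under 0.05. Among glucocorticoid targets, Fkbp5 was lower and apart (-1.38 ± 0.39) and Klf9 higher and apart (0.77 ± 0.24), with a list median of -0.06. Ern1, the sensor kinase of the unfolded protein response, and Xbp1, whose RNA it splices, were each higher and apart, by 0.61 ± 0.21 and 0.68 ± 0.25, in a list of 26 with a median of -0.02. In the autophagy list, Gabarapl1 was higher in all 6 probe sets (0.97 ± 0.29) and Bnip3 was lower (-1.08 ± 0.33). Psmd11, a proteasome subunit, was higher in all 17 probe sets (0.69 ± 0.19). Ribosome biogenesis (32 genes, median 0.04) and cytosolic ribosomal proteins (33 genes, median 0.00) lay near the median of all genes. Rpl11 differed by 0.92 ± 0.17 (adjusted p = 0.125, and 0.155 on the 16 arrays numbered 2 and 3). Its arrays read 4.12, 4.11 and 4.20 at ZT15 and 5.06, 5.14 and 4.99 at ZT21, all below the olfactory percentile. None of the members named in this paragraph passed.

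**Figure D4:**
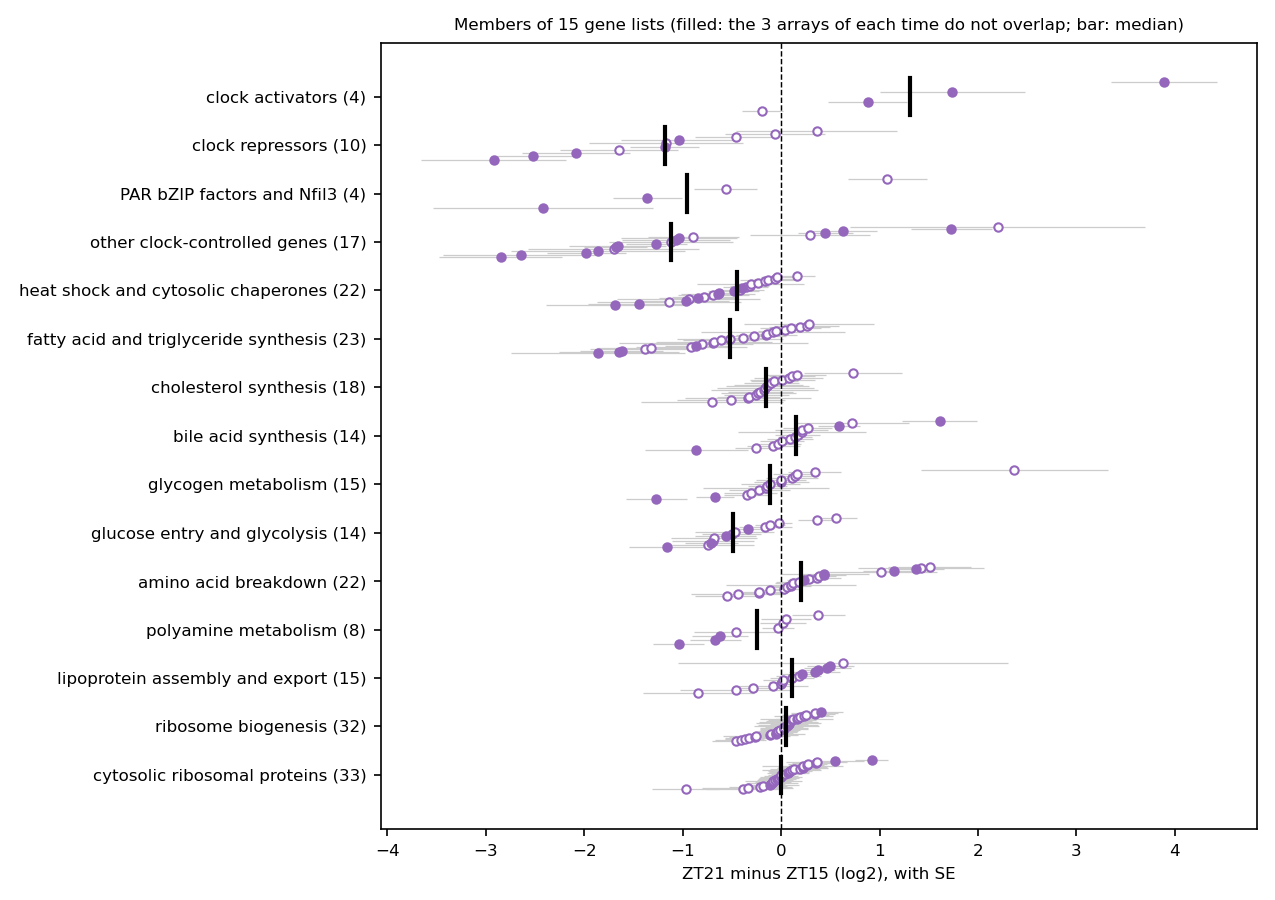
ZT21 minus ZT15 in log2 units (horizontal axis, with SE) for every measured member of 15 gene lists (rows, number of members in brackets). Filled points are genes whose 3 arrays of one time lie beyond the 3 of the other, and black bars are list medians, which run from -1.18 for clock repressors to 1.31 for clock activators.

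Most cell type lists had overlapping mean levels at the 2 times, and 2 lists did not. All 14 hepatocyte markers lay above the olfactory percentile, and their mean level was 17.21 to 17.29 on the ZT15 arrays and 17.25 to 17.40 on the ZT21 arrays. Albumin (Alb) read near the top of the scale throughout, between 19.33 and 19.46 on the 6 arrays. Kupffer cell markers (13 genes) had a mean level of 8.33 to 9.08 at ZT15 and 8.52 to 9.02 at ZT21, endothelial markers (13) 9.70 to 9.99 and 9.31 to 10.24, and stellate cell markers (12) 8.45 to 9.33 and 8.21 to 9.06. Biliary epithelial markers (7 genes, 2 of them above the olfactory percentile) had mean levels of 6.15 to 6.41 at ZT15 and 6.48 to 6.52 at ZT21, with Sox9 and Epcam higher and apart. Adipocyte markers (8 genes, 3 above it) had 6.31 to 6.41 and 6.13 to 6.29, with Pparg lower and apart. Their part in other results was not tested. None of the 12 neutrophil markers and 1 of 8 B cell markers lay above the olfactory percentile. Limma called 0 members of the 13 cell type lists, and each list had 0 or 1 member at an unadjusted p under 0.05.

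The step was set against the daily rhythm as the other arrays show it. A 24-h curve was fitted to the 18 arrays of the other 6 times, which share no array with the comparison, and its value at ZT21 minus that at ZT15 was taken for each gene. On those 18 arrays 1067 genes were rhythmic at an adjusted p under 0.05 (4.61%). The measured step had the sign of the curve in 829 of them (77.7%), against 53.4% of all genes, and the correlation across genes was 0.74 for the rhythmic genes and 0.28 for all 23152. Genes are not independent replicates, and these are descriptions. Of the 51 rhythmic genes whose curve went up by at least 1 unit, 49 were higher at ZT21, with a median of 1.04 where the curve gave 1.32. Of the 101 whose curve went down by at least 1 unit, 90 were lower, with a median of -0.89 where the curve gave -1.36.

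Individual genes followed or left their curves. Per2 differed by -2.52 where the curve gave -2.41, Nampt by -1.98 against -1.89, and Tymp by 2.12 against 2.09. Npas2 rose by 3.89 where the curve gave 1.50 ± 0.34, and Ppard read 2.22 against 0.36. Npas2 and Ppard had limma's smallest p-values in the measured step, and picking genes by that p favours large measured steps. For Wee1 the curve gave -2.11 against the measured -2.85. Cry1 had a curve step of -0.99 and a measured one of -0.06, and Nr1d1 1.35 and 0.36. On the 16 arrays numbered 2 and 3, the measured step of Cry1 was -0.59 and that of Nr1d1 1.35, while the curves also used arrays numbered 1. That step of Nr1d1 rested on array 3 of ZT21, at 9.45 against 6.91 for array 2. Nr1d2 read -2.08 against -0.62 of its curve and Per3 -2.92 against -1.54, both further down, while Ciart read -1.04 against -2.08.

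**Figure D5:**
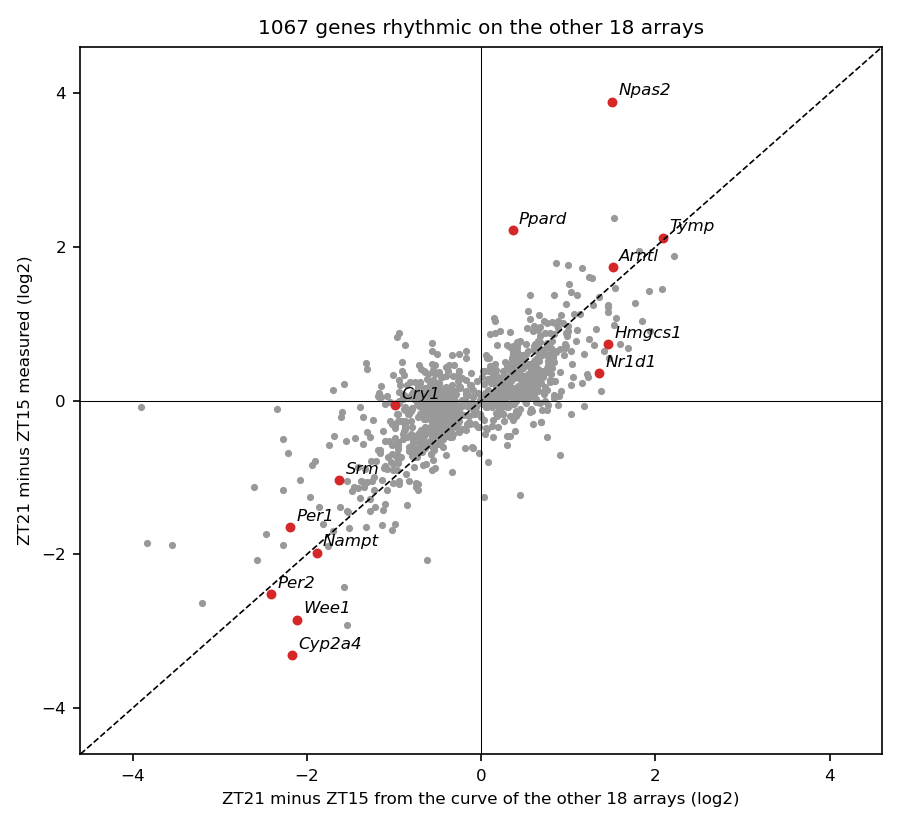
Measured ZT21 minus ZT15 (vertical axis, log2) against the same step taken from 24-h curves fitted to the other 18 arrays (horizontal axis, log2), for the 1067 genes rhythmic on those arrays. The dashed line marks equal steps, and of the genes 829 have the same sign on both axes. Npas2 (3.89 against 1.50) and Ppard (2.22 against 0.36), which had limma's smallest p-values in the measured step, lie far above the line.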

How the data were processed

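Whole-transcript arrays of 24 liver RNA samples, 3 at each of 8 zeitgeber times, were read from the deposited table of log2 values, normalized by the authors with a method not given in the sources used here. The submitters' processing notes list limma, Affymetrix Power Tools 2.10.0 and mm10, with no roles. Medians of the arrays lay between 6.44 and 6.51. The highest value, 19.93, is a ceiling, which 1283 probe sets reached, and differences there are understated. Precision is limited by the number of arrays, since arrays carry no depth.

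Of 269479 probe sets, 233753 had 1 gene symbol, 5106 several and 30620 none. The first kind was averaged into 23152 genes, with a median of 8 probe sets each and 2189 symbols updated from RefSeq (GRCm38.p6). No dim gene was left out. Background was the 95th percentile (6.17) of 1084 olfactory receptor genes, which 10305 genes exceeded. Limma 3.58.1 in R 4.3.3 fitted the 8 time-point means on all 24 arrays with empirical Bayes moderation. The two-sided contrast ZT21 minus ZT15 was adjusted by Benjamini-Hochberg over all genes, threshold 0.05. The last minus the first 3 h of the step was tested likewise. In simulated data on 23152 genes for ZT21 minus ZT15, limma recovered 25 of 50 genes changed by 1 log2 unit, 48 of 50 at 2, 43 of 50 at 3 and 49 of 50 at 4, with 8 false calls. The changes were planted together in genes drawn at random, with independent normal noise. These shares therefore do not give the power for the rhythmic genes of this step. In the data, Per3 at -2.92 and Cyp2a4 at -3.31 did not pass.

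The comparison, its members and the 57 gene lists were chosen with earlier results of these data known. Lists are described by counts and medians and were not tested. The rule named genes that passed in the step whichever of the 6 arrays was left out (0 genes), every measured gene of the clock lists except the other clock-controlled genes, the member with the smallest p of each further list (3 where called), and called genes of the other tests, 58 genes in all. Genes outside it were chosen after their values were seen, also where the sentence giving them does not say so. These include Odc1, Azin1, Gbe1, Ppp1r3c, Cyp2a5, Pparg, Esrra, Xbp1, Bnip3, Sox9 and Epcam. The counts of groups that do not overlap, the clock time read, the curve of the 18 other arrays and the block on 6 arrays were added after seeing the data. Same-numbered ZT15 and ZT21 samples were checked for shared deviations from their group means. Over the 10305 genes above the olfactory percentile, the correlations were 0.126, 0.348 and -0.071. The numbers were not taken as pairs in the main fit. This check cannot decide on pairing for the clock genes. It weighs all genes above that percentile alike, and deviations within a group of 3 depend on each other. In the clock genes, the arrays numbered 1 read early at both times, by -2.8 h at ZT15 and -3.5 h at ZT21. Results with the replicate number as a block are given below. Alternatives changed the normalization, dim-gene filter, gene value, variance prior, array weights, moderation and arrays in the fit. RefSeq promoter windows were found for 50 of the 58 named genes.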

Additional observations from a re-analysis of the deposited data

How the results depend on the processing

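With 1 call in the step, small changes of setting move the count. It was 2 genes with quantile normalization (Npas2, Rpl11) and on only the 6 arrays (Npas2, Vmn1r83), 3 without genes below the olfactory percentile (Npas2, Ppard, Per2) and on the 16 arrays numbered 2 and 3 (Npas2, Per2, Per3), 4 with array weights (Npas2, Tspan4, Per2, Ppard), and 0 with the brightest probe set and without moderation. Leaving out 1 array gave 0 to 2. The adjusted p of Npas2 lay between 5.67e-06 and 0.658 over all alternatives, and its direction was the same in each. For unequal parts of the step, 1 gene was called on the 16 arrays, with 1549 at an unadjusted p under 0.05. The filter at the olfactory percentile left 453 there and 883 for the step. By list, activators had 0 with the brightest probe set or without moderation, and 0 to 1 with 1 array left out. Repressors had 1 with the filter or array weights, 2 on the 16 arrays, and 0 to 1 with 1 array left out. Nuclear receptors had 1 with the filter or array weights, and 0 to 1 with 1 array left out. Array weights gave 1 among other clock-controlled genes and quantile normalization 1 ribosomal protein. The cause of these moves was not tested. With the replicate block on all 24 arrays, Npas2 stayed the 1 call (adjusted p = 0.0272). With the replicate block on the 6 arrays, added after seeing the data, limma called 4 genes (Npas2, Per3 and Wee1 at 0.0107, Per2 at 0.0202), which makes 2 repressors, 1 other clock-controlled gene and 1 cell cycle gene.

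Over the 58 named genes, 1174 alternative values kept direction and side of the threshold, and 13 gained and 5 lost the call. A further 19 changed sign or showed no difference. With the brightest probe set, Arntl was -0.04, Cry1 0.06, Ciart 0.11, Ern1 -0.02, Oas2 -0.13, and Apoa1, Hspa8 and Fgg 0.00. Apoa1, Hspa8 and Fgg all have probe sets at the top of the array scale. With the median of probe sets, Rora was 0.26, Rorb 0.37 and Oas2 -0.03, and with centred arrays Rora was 0.00. With 1 array left out, Cry1 ran from -0.59 to 0.29, Nr1d1 from -0.51 to 0.87 and Rora from -0.11 to 0.05. The 300-base promoter window, like the 250-base one, held no motif searched for Npas2. Over the 300 bases, the ROR element was found in 1 of the 7 activator windows, against 0.219% of all windows.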

Other observations

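The genes here lie outside the rule and were chosen after their values were seen. The 6 measured genes of the MCM helicase, Mcm2 to Mcm7, which unwinds DNA for replication, were all lower at ZT21, 4 of them with the groups apart, and their median was -0.89. Mcm6 read 7.32, 9.18 and 6.98 at ZT15 and 6.04, 6.87 and 6.00 at ZT21 (-1.53 ± 0.55, limma's adjusted p = 0.630), and Mcm3 6.35, 7.32 and 6.47 against 5.58, 5.76 and 5.45 (-1.12 ± 0.32, adjusted p = 0.556). Array 2 was the highest at ZT15 for both. Only 3 of the 6 genes had a mean above the olfactory percentile of 6.17, so these are dim signals.

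Grk5, a kinase of G protein-coupled receptors, was higher at ZT21, at 6.66, 7.13 and 6.62 against 8.02, 9.33 and 8.43 (1.79 ± 0.40, adjusted p = 0.278). St3gal1, a sialyltransferase, read 11.01, 11.28 and 11.38 against 12.35, 12.99 and 12.43 (1.37 ± 0.32, adjusted p = 0.352). Clpx, the unfoldase of a mitochondrial protease, read 13.03, 13.19 and 14.36 against 15.72, 15.02 and 15.68 (1.94 ± 0.63, adjusted p = 0.594), close to the 1.81 of the curve of the other 18 arrays. Acyl-CoA thioesterases Acot3 (-1.70 ± 0.65) and Acot4 (-1.22 ± 0.40) were lower with the groups apart. Rpl39 had a difference of 3.24 ± 1.24 (adjusted p = 0.637) that rests on 1 probe set with ZT15 values of 4.07, 1.72 and 4.23.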
